A study of Saccharomyces cerevisiae with 8 samples.

Results

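The Nrd1-terminated transcripts (NUTs) of budding yeast are noncoding transcription units, named by the deposited table with NUT and a number. A rule on these names found 1525 NUTs among 11966 features, and the gene NUT2 (YPR168W) was not counted as one. RNA came from 8 libraries of strain BY4741, mating type a, with the alleles his3Δ1, leu2Δ0, met15Δ0 and ura3Δ0 in every library. WT carried these alleles only, and upf1 carried upf1::kanMX4 in addition. Cultures in YPD at 30 °C and an OD600 of 0.5 received anisomycin (ANS) at 100 µg/ml, or DMSO as its solvent control, for 30 min. Each genotype with each agent gave 2 biological replicates, so that there were 4 groups. Ribosomal RNA was depleted from total RNA and strand-specific libraries were sequenced.

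Nrd1 and Nab3 are RNA-binding proteins that, with the helicase Sen1, end transcription by RNA polymerase II early on short noncoding RNAs and on small nuclear and small nucleolar RNAs (snoRNAs). The nuclear exosome, helped by the TRAMP complex, then degrades the noncoding products or trims the snoRNA precursors. NUTs were defined elsewhere as RNAs that lengthen or accumulate when Nrd1 is removed from the nucleus, so they are normally scarce. ANS stops peptide bond formation on ribosomes. Upf1, encoded by NAM7, is the helicase of nonsense-mediated decay (NMD), which removes translated RNAs whose reading frames end early.

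The values are normalized densities, in reads per nucleotide multiplied by 1 factor per library. Multiplying each density by a length between 20 and 20000 nt gave whole reads, within 0.0001 reads, for 11954 of the 11954 features above 0. These recovered reads numbered 6970361 to 12016787 per library and set the precision of the low values. NAM7, deleted in upf1, had 0.432 and 0.449 with DMSO in WT against 0.0113 and 0.00975 in upf1. URA3 and LEU2, deleted in this strain, lay between 0 and 0.00285 in all libraries. The mating type a genes MFA1, STE2, BAR1 and STE6 were at 0.518 or more, whereas the alpha genes MF(ALPHA)1, MF(ALPHA)2 and STE3 were at 0.137 or less. MET15 was not analysed here.

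Some NUTs surround a snoRNA or small nuclear RNA, and 5 of these are shown by the genomic sequence past the 3′ end of that RNA, where Nrd1 and Nab3 would meet the transcript. Reads of a NUT were called shared with a neighbouring feature when the smaller of their 2 counts reached 80% of the larger. In addition, 1 of the 2 had to be the higher in every library, with at least 50 reads, and the features had to lie within 12 rows. By that definition 31 NUTs shared their reads with a small RNA, and all 31 lay on its strand. Coordinates of the NUTs themselves were not used here, so how much of each stretch a NUT covers is not given. The row order places each of these 5 NUTs with its left end past the 3′ end of its small RNA. The stretches are 150 bases of the R64 genome on the minus strand, 5′ to 3′, from the base after the annotated end. Capitals mark GTAA or GTAG, the Nrd1 motifs, and TCTT, the Nab3 motif, written as DNA and searched on the RNA's own strand only.
past snR37 (NUT1169), chrX:227944-228093: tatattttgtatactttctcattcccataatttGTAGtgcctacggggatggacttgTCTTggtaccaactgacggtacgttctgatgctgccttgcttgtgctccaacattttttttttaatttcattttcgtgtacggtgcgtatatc
past snR86 (NUT1320), chrXIII:761960-762109: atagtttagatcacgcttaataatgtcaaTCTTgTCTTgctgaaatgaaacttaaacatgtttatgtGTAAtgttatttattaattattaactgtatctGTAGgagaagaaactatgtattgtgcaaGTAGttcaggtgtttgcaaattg
past snR63 (NUT0891), chrIV:323067-323216: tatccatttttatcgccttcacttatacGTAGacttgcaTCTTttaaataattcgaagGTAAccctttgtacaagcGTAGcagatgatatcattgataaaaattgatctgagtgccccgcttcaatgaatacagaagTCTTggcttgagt
past snR35 (NUT1434), chrXV:759176-759325: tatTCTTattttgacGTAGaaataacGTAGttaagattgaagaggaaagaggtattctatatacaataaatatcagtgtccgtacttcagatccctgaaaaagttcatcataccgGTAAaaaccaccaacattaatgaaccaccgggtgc
past snR19 (NUT1342), chrXIV:229955-230104: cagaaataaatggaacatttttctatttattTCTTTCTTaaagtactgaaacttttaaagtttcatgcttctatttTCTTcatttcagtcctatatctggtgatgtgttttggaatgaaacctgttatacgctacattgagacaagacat

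The first 4 are snoRNAs, which guide chemical modification of ribosomal RNA, and snR19 is U1, the RNA of the spliceosome that pairs with 5′ splice sites. The snR86, snR63 and snR35 stretches each held 3 matches to a Nrd1 motif, that of snR37 held 1, and that of snR19 held 0. TCTT was found 1 time past snR37 and snR35, 2 times past snR86 and snR63, and 3 times past snR19. No base lay in 2 matches. Over 76 snoRNA genes, 54 (71.05%) had GTAA or GTAG in the same window, 70 (92.11%) had TCTT and 52 (68.42%) had both. Over 6002 protein-coding genes the shares were 66.73%, 66.53% and 42.97%. Short motifs are common, and a match is a description of the letters only.

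NUTs were long and thinly read. Their recovered lengths had a median of 1512 nt and ran from 138 to 8314 nt, compared with medians of 377 nt for CUTs, 753 nt for SUTs and 597 nt for XUTs. Where several lengths fitted, the smallest was taken for these classes. Lengths and read numbers of thinly read features may therefore be too low. CUTs are cryptic transcripts degraded by the nuclear exosome, SUTs are stable unannotated transcripts, and XUTs are removed by the cytoplasmic exonuclease Xrn1. The median NUT had 178 reads over the 8 libraries together, and the range was 1 to 403994. The 50 NUTs with most reads held 83.74% of all NUT reads. In WT DMSO 31 NUTs had 0 reads in both libraries and 514 had under 10 reads in the pair, whereas 1379 had a read in every library. The number of NUTs at 0 per library was 112 and 52 for WT DMSO, 9 and 6 for WT ANS, 35 and 24 for upf1 DMSO, 4 and 3 for upf1 ANS.

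The order of the rows follows chromosome position, with 6073 of 6086 neighbouring annotated genes (99.7864%) in order of their start. The NUT numbers formed 2 increasing runs along that order, to 816 and from there to 1526, with 1 step backwards inside the runs. Numbers of the first run were read as the plus strand and those of the second as the minus strand. Under that reading 496 pairs with shared reads lay on the same strand and 11 on opposite strands. From start, length and neighbours, 366 of 1524 NUTs had to overlap a protein-coding gene. The overlapped gene was on the other strand for 320 and on the same strand for 66. The others may overlap genes too, since their exact starts were not used here.

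What a NUT shares its reads with split the class into groups with very different content. The 31 NUTs around a small RNA held 73.3% of all NUT reads. Another 87 shared reads with a protein-coding gene and held 10.7%, and 287 shared reads with an XUT, SUT or CUT and held 4.09%. No sharing was found for 951 NUTs, which held 11.7% of the reads, and 169 had under 50 reads and 0.178%. These groups were drawn up after the values were seen, and a match rests on read numbers and neighbourhood, not on alignments. Partners were sought only among small RNAs, protein-coding genes, XUTs, SUTs and CUTs. Sharing with no other feature means, here and below, that no such match was found. Such a NUT may still share fewer of its reads, or reads with another kind of feature. Among NUTs that share reads with a gene, named here after their values were seen, NUT1166 had the same 63297 reads as URA2, which encodes the first enzyme of pyrimidine synthesis. NUT0784 likewise had all 25494 of its reads in common with RPS9A, a ribosomal protein gene. For such NUTs the reads are also those counted for the gene.

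The median NUT, set against protein-coding genes, was lowest in WT DMSO and higher in the other 3 groups. As a percentage of the median protein-coding density the WT DMSO libraries had 2.62% and 3.14% and the WT ANS libraries 4.63% and 4.66%. The upf1 DMSO libraries had 4.61% and 4.98%, and the upf1 ANS libraries 5.53% and 6.21%. Both WT DMSO libraries lay below all others, and both upf1 ANS libraries lay above all others. The means were 2.88% ± 0.365 (SD, n = 2), 4.65% ± 0.0206, 4.79% ± 0.265 and 5.87% ± 0.480 in that order. On the log2 scale WT ANS was 0.69 above WT DMSO and upf1 DMSO 0.74 above WT DMSO. With 2 libraries a group a permutation test cannot reach 0.05, so these levels carry no test. The sum over NUTs gave the opposite direction for ANS, at 4.35% and 4.76% of the protein-coding sum before ANS in WT and 3.28% and 2.94% after it. In the sum the small RNA NUTs dominate, with summed densities between 154 and 170 in all 8 libraries. The sum over the other NUTs went from 28.2 and 28.6 to 82.1 and 100.8 under ANS in WT. In upf1 it went from 41.2 and 40.2 to 109 and 104. Cells were measured in bulk, so a larger share of cells making a NUT and more RNA per cell cannot be told apart.

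**Figure D1:**
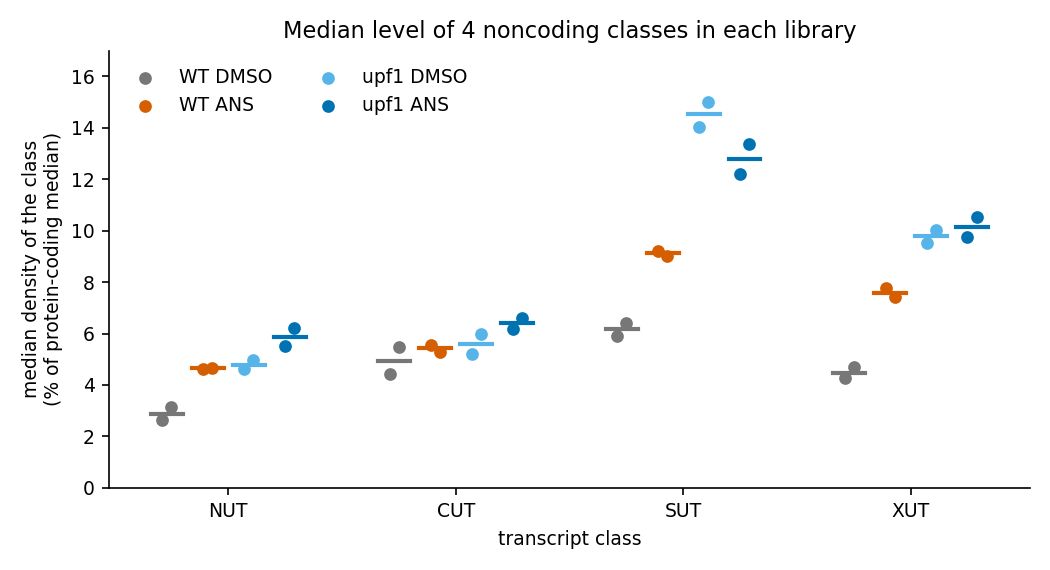
Median density of NUTs, CUTs, SUTs and XUTs as a percentage of the median protein-coding density (y axis) for the 4 classes (x axis), with 1 point per library, coloured by group, and a bar at the mean of 2 libraries. The NUT points lie between 2.62% and 3.14% in WT DMSO and at 4.61% or more in the other groups.

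The same plot places NUTs beside the other classes. SUTs went from a mean of 6.18% ± 0.358 (SD, n = 2) in WT DMSO to 9.12% ± 0.140 in WT ANS and 14.5% ± 0.671 in upf1 DMSO. XUTs went from 4.48% ± 0.299 to 7.59% ± 0.259 and 9.78% ± 0.382. CUTs stood at 4.94% ± 0.749, 5.42% ± 0.178 and 5.59% ± 0.553, and the CUT libraries of the 3 groups overlapped. NUT medians in WT ANS and upf1 DMSO differed by less than the spread of the upf1 DMSO pair, whereas the SUT and XUT medians of upf1 DMSO were above those of WT ANS in every library.

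ANS in WT raised most NUTs on the deposited scale, as it did most features. Of 1525 NUTs, 1448 had a mean density at or above the filter of 0.00340 and were tested, and 77 were left out. Just below and just above the filter the mean densities were 0.00338 and 0.00340. By limma on log2(density + 0.00340), adjusted by Benjamini and Hochberg over all 11579 features tested, 1343 NUTs rose and 0 fell, and 0 were lower at an unadjusted p below 0.05. Among all features tested 90.2% rose and 0.345% fell. The median NUT change was 1.77 (log2), beside 1.77 for all features. The median NUT density in the WT DMSO libraries, 0.00370 and 0.00448, was close to the 0.00340 added, which understates changes at that level. The median protein-coding densities there were 0.141 and 0.143. With nothing added, the median NUT density differed by 2.57 (log2), so the 2 medians of 1.77 are not a like comparison. A share near this background is no result about NUTs. The filter kept some NUTs only through the groups where they are high.

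The deposited scale keeps snoRNAs level, with a median snoRNA change of 0.00 (log2), while the median protein-coding gene rose by 1.72. Rescaling every library to its protein-coding genes moved the median change of all features from 1.77 to 0.28. On that scale 607 NUTs rose and 88 fell, beside 35.7% and 19.4% of all features, and the median NUT change was 0.60. Which scale follows RNA per cell was not tested, and the spike-in RNA of the protocol was not used here. SnoRNAs are themselves known targets of termination by Nrd1.

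**Figure D2:**
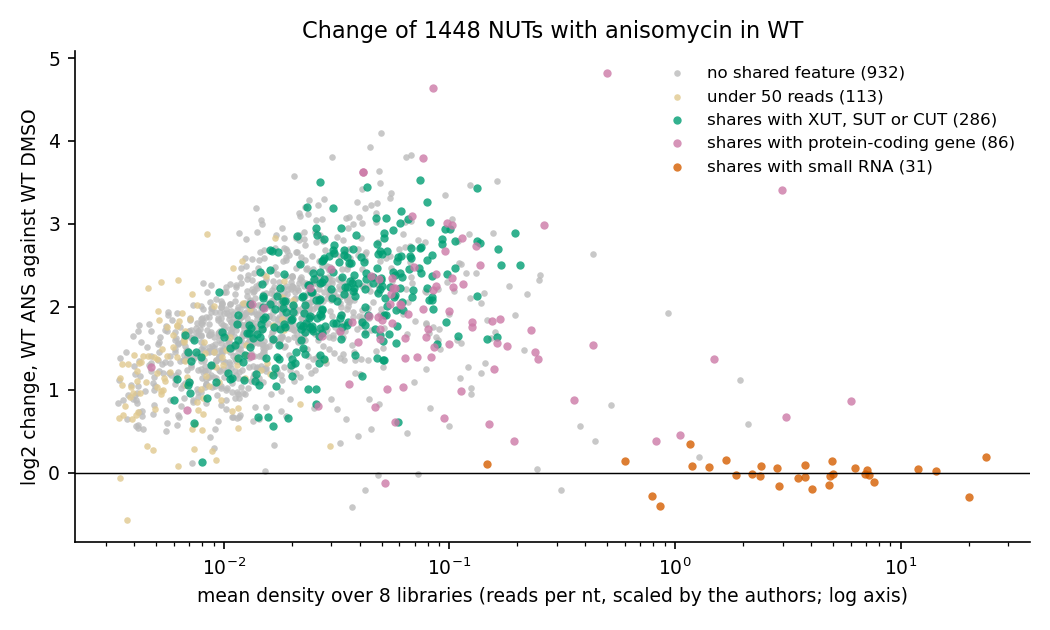
Log2 change of 1448 tested NUTs between WT ANS and WT DMSO (y axis) against mean density over 8 libraries on a log axis (x axis), 1 point per NUT, coloured by what the NUT shares its reads with. The 31 small RNA NUTs lie between -0.40 and 0.35, while the median of the 932 NUTs with no shared feature is 1.78.

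On the deposited scale the change differed mainly between NUTs around small RNAs and the other NUTs. NUTs around small RNAs had a median change of -0.01 (log2) on the deposited scale, and 1 of 31 passed the test upwards. Against protein-coding genes all 31 fell, with a median of -1.72. A median of 99.3% of the reads of these 31 were those of the small RNA. Of 76 snoRNAs 74 fell on that scale too, so both values restate the small RNAs and are no result about NUTs. NUTs with no shared feature had a median of 1.78 and 890 of 932 (95.5%) rose, beside 1.77 and 90.2% for all features. On the rescaled densities the median of these NUTs was 0.64, with 395 (42.4%) that rose and 33 that fell. All features had a rescaled median of 0.28, with 35.7% that rose and 19.4% that fell. NUTs sharing with an XUT, SUT or CUT had medians of 2.05 and 0.72, and 282 of 286 rose on the deposited scale. Those sharing with a protein-coding gene had medians of 1.82 and 0.27, and 84 of 86 rose. Shares near those of all features are no result about NUTs.

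Among the 6 NUTs of highest mean density all surround a small RNA. NUT1169 (chromosome X, minus strand) has a length of 1054 nt, and 99.9% of its reads are those of snR37. Its densities in WT went from 22.2 and 21.0 with DMSO to 24.05 and 24.98 with ANS, and in upf1 from 23.5 and 22.2 to 26.9 and 27.0. The rise in upf1 passed, at 0.24 ± 0.09 (log2 ± SE, adjusted p = 0.0307 in limma), beside 88.7% of all features that rose. Relative to protein-coding genes NUT1169 fell in upf1, by 1.25. The WT groups did not overlap, but the change of 0.18 ± 0.09 (log2 ± SE) had an adjusted p of 0.0821 in limma. It passed without WT ANS replicate 1, at 0.21, and rescaled on protein-coding genes NUT1169 fell, by 1.52. NUT0490, around snR30, a snoRNA needed to process 18S ribosomal RNA, went from 23.8 and 21.5 to 14.8 and 23.1 under ANS in WT, so the groups overlapped. Without WT ANS replicate 2 its fall of 0.61 passed on the deposited scale. It fell relative to protein-coding genes, by 1.996 ± 0.16 with an adjusted p of 8.57e-05. NUT1162 holds both snR190 and snR128 and lay between 13.87 and 14.98 in all 8 libraries. NUT0255, around snR82, lay between 11.3 and 12.7, NUT1342, around U1, between 6.11 and 8.33, and NUT1320, around snR86, between 6.28 and 8.28. The part of NUT1342 outside U1 must overlap SSU72 on the other strand, a gene for a phosphatase of the termination machinery.

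The small RNA's own reads were then taken away to leave the remainder of these NUTs. For 28 NUTs with 1 small RNA in reach, the density outside it had medians of 0.0109 and 0.0164 with DMSO in WT, against 0.0332 and 0.0417 with ANS. For upf1 the medians were 0.0143 and 0.0165 with DMSO, against 0.0348 and 0.0366 with ANS. Outside the small RNA, both WT ANS libraries lay above both WT DMSO libraries for 24 of 28 NUTs and below them for 1. For the whole NUT the same counts were 9 and 8. These counts are on the deposited scale, on which 90.2% of all features passed the test upwards. How many of all features had groups apart in this way was not counted, so 24 of 28 has no like share beside it. As a percentage of the protein-coding median the outside median was 7.70% and 11.5% before ANS in WT and 7.20% and 7.12% after it, so it was not higher on that measure. In NUT1342 the outside reads in WT numbered 6 and 10 before and 16 and 19 after ANS, and NUT1320 had 1 in each of these libraries. In NUT0891, around snR63, the outside density in WT went from 0.0598 and 0.05002 to 0.163 and 0.186 under ANS. Other RNAs that overlap a NUT on its strand may be part of the outside reads, and their part was not tested.

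**Figure D3:**
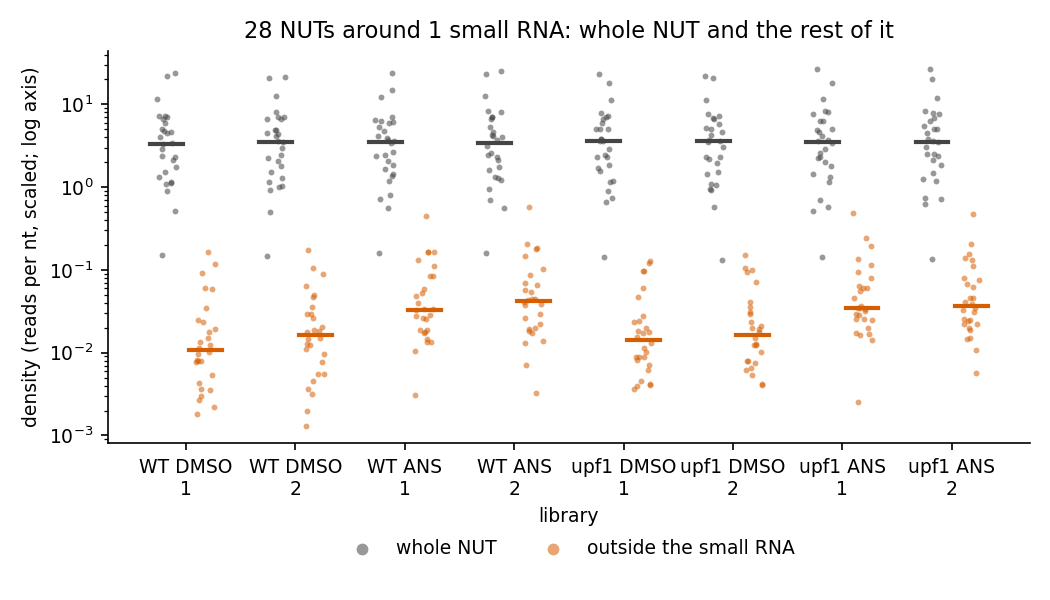
Density on a log axis (y axis) of 28 NUTs that surround 1 small RNA, for each of the 8 libraries (x axis), with 1 point per NUT for the whole NUT (grey) and for its bases outside the small RNA (orange), and a bar at the median. The whole-NUT medians are level, and the outside medians of the WT ANS libraries, 0.0332 and 0.0417, lie above those of WT DMSO, 0.0109 and 0.0164. A value of 0 is not drawn.

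NUT0167, around snR13, a snoRNA known for termination by Nrd1, was the 1 small RNA NUT that rose in WT, and is named for that after its values were seen. Its densities went from 1.10 and 0.992 to 1.35 and 1.32, and the groups did not overlap. The change was 0.35 ± 0.12 (log2 ± SE, adjusted p = 0.0211 in limma). It missed the threshold without WT DMSO replicate 1, at an adjusted p of 0.0531, and without WT DMSO replicate 2, at 0.183. Rescaled on protein-coding genes NUT0167 fell, by 1.35. Only 80.9% of its reads were those of snR13. Outside snR13 the density in WT went from 0.0929 and 0.105 to 0.450 and 0.576. In upf1 the outside density went from 0.0973 and 0.0986 to 0.490 and 0.473.

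The NUTs with the largest rise under ANS in WT were of several kinds. NUT1459 (836 nt, chromosome XVI, minus strand) shared 99.6% of its reads with ATG41, a gene for autophagy. Its densities in WT went from 0.0400 and 0.0330 to 0.936 and 1.33. It rose by 4.82 ± 0.21 (log2 ± SE, adjusted p = 3.79e-07 in limma), and by 3.17 relative to protein-coding genes. NUT0493 (632 nt, chromosome XII, plus strand) shared 94.0% of its reads with YLR031W and had 1 and 6 reads with DMSO in WT, against 68 and 63 with ANS. It rose by 4.64 ± 0.31 (adjusted p = 1.14e-06). In both cases the NUT's value is that of the gene it surrounds.

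The other NUTs named for a rise under ANS in WT had no shared feature by the definition above. NUT0062 (2076 nt, chromosome II, plus strand) starts between the starts of SSH1 and YBR284W. In WT its densities went from 0.00138 and 0.00332 to 0.0829 and 0.105, from 3, 10, 108 and 127 reads. It rose by 4.09 ± 0.27 (log2 ± SE, adjusted p = 1.14e-06 in limma), and by 2.91 relative to protein-coding genes. NUT0592 (772 nt, chromosome XIII, plus strand), between SPC24 and SHH3, had 3 reads in each WT DMSO library but 44 and 46 in the WT ANS libraries, and its change was 3.92 ± 0.23. NUT1080 (1747 nt, chromosome VII, minus strand), between SLI1 and RTA1, went from densities of 0.00711 and 0.00395 to 0.106 and 0.140, a rise of 3.83 ± 0.25. NUT0453 (2485 nt, chromosome XI, plus strand) must overlap YKL102C on the other strand and went from 0.00922 and 0.00943 to 0.140 and 0.219. In each of these NUTs the WT groups did not overlap, which the rule for naming them required. NUT0853 (745 nt, chromosome II, minus strand) was listed at 0 in both WT DMSO libraries and had 14 and 20 reads in WT ANS, so no fold is given.

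Under ANS in upf1, 1317 of 1448 tested NUTs rose and 2 fell, beside 88.7% and 0.268% of all features. The median NUT change was 1.40, and that of all features 1.37. Rescaled, 203 NUTs rose and 86 fell, beside 17.4% and 18.4%, and the medians were 0.22 for NUTs and 0.02 for all features. NUT1459 was again high, going from 0.0262 and 0.0299 to 0.714 and 0.893. NUT1463 (3053 nt, chromosome XVI, minus strand), between FMP40 and FLC1, went from densities of 0.00628 and 0.00705 to 0.111 and 0.0921. It rose by 3.38 ± 0.25 (log2 ± SE, adjusted p = 5.55e-06 in limma), and its change in WT was 3.37 ± 0.25. NUT0185 (2392 nt, chromosome V, plus strand), between MAK10 and AFG1, went from 0.00229 and 0.00243 to 0.0509 and 0.0502. NUT0238 (377 nt) had 0 and 1 reads in upf1 DMSO against 11 and 12 in upf1 ANS.

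Of the 2 NUTs that fell in upf1 under ANS, 1 surrounds a snoRNA and 1 shared reads with no other feature. NUT0628 (356 nt, chromosome XIV, plus strand) surrounds snR40, which gave 88.2% of its reads, and went from 0.906 and 0.918 to 0.509 and 0.627. It fell by 0.69 on the log2 scale (SE 0.15, adjusted p = 0.00147 in limma). Its part outside snR40 went from 0.127 and 0.153 to 0.0613 and 0.112. In WT the outside part went from 0.166 and 0.176 to 0.111 and 0.0862, the 1 of 28 NUTs whose outside part was lower in both WT ANS libraries. NUT1269 (680 nt, chromosome XII, minus strand) starts between the starts of JIP3 and snR61 and went from 0.0846 and 0.0795 to 0.0487 and 0.0633. Its distance from snR61 is not given. Its fall of 0.54 on the log2 scale did not pass without upf1 DMSO replicate 1, upf1 DMSO replicate 2 or upf1 ANS replicate 1. After rescaling, the named falls under ANS in WT were all small RNA NUTs. They were NUT0490, NUT0628, NUT0692 around snR81 and NUT1434 around snR35, with changes of -1.996, -1.98, -2.10 and -1.90. On the deposited scale they did not pass, but NUT0628 did without WT ANS replicate 1, and NUT0692 and NUT1434 did without WT ANS replicate 2.

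Loss of Upf1 without ANS raised about the same share of NUTs as of other features, but unevenly across NUTs. In upf1 DMSO against WT DMSO 509 of 1448 tested NUTs rose and 1 fell, beside 31.6% and 0.613% of all features. The median change was 0.55 for NUTs and 0.32 for all features. Rescaled, 529 NUTs rose and 36 fell, beside 30.9% and 16.4%, with medians of 0.50 and 0.14. The number of NUTs past the test was 302 without upf1 DMSO replicate 1 and 336 without upf1 DMSO replicate 2.

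The share of NUTs that rose in upf1 differed with the feature whose reads they share, beside 31.6% of all features. Of 286 tested NUTs sharing with an XUT, SUT or CUT, 189 (66.1%) rose, with a median change of 1.09 (log2). Of 932 with no shared feature, 278 (29.8%) rose, with a median of 0.50. Among 86 that share with a protein-coding gene 35 (40.7%) rose, and among 113 with under 50 reads 7 rose and 1 fell. On the deposited scale none of the 31 small RNA NUTs rose or fell by limma, and 0 had an unadjusted p below 0.05. Rescaled on protein-coding genes 6 of the 31 fell, and 10 were lower at an unadjusted p below 0.05. By partner, 139 of 193 sharing with an XUT rose (72.02%), 97 of 129 sharing with a SUT (75.2%) and 12 of 52 sharing with a CUT (23.1%). A NUT can have several partners. Of the partner classes themselves 59.8% of tested XUTs, 65.9% of SUTs and 18.3% of CUTs rose. Since NUTs with a partner hold largely its reads, their shares largely restate those classes. Without upf1 DMSO replicate 1, 140 of the 286 and 140 of the 932 rose. Ranked by mean density and cut into 4 bins, the highest bin had 100 of 114 sharing with an XUT, SUT or CUT that rose (87.7%) and 94 of 161 with no shared feature (58.4%). In the next bin the counts were 70 of 103 (68.0%) and 119 of 265 (44.9%), then 18 of 53 (34.0%) and 60 of 301 (19.9%). In the lowest bin they were 1 of 16 (6.25%) and 5 of 205 (2.44%). The mean behind the bins is over all 8 libraries, so a rise in upf1 itself raises it. The groups were drawn up after the values were seen, so these shares carry no test of their difference.

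**Figure D4:**
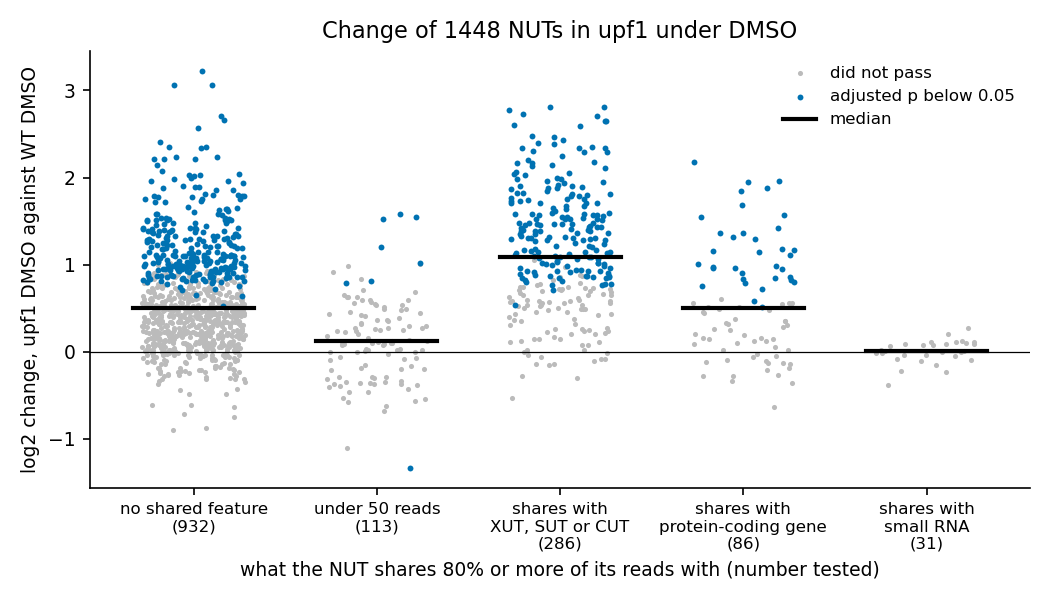
Log2 change of 1448 tested NUTs between upf1 DMSO and WT DMSO (y axis), grouped by the feature they share reads with (x axis, number tested in parentheses), 1 point per NUT, blue where the adjusted p was below 0.05, with a bar at the median. The median is 1.09 for NUTs sharing with an XUT, SUT or CUT, 0.50 for those with no shared feature and 0.01 for small RNA NUTs.

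The largest rises in upf1 DMSO came from NUTs that were barely read in WT DMSO. NUT0672 (1328 nt, chromosome XV, plus strand) starts between BDS1 and YOL163W and shared reads with no other feature. Its densities in WT were 0.00216 and 0.00363 with DMSO and 0.0180 and 0.0246 with ANS, against 0.0546 and 0.0556, then 0.124 and 0.114, in upf1. The 4 groups did not overlap, and both upf1 groups lay above both WT groups. That upf1 lay above WT with each agent was required for naming this NUT. It rose by 3.23 ± 0.24 (log2 ± SE, adjusted p = 1.78e-05 in limma). NUT0671 (358 nt) starts between the same genes, shares 80.3% of its reads with XUT0789 and went from 0.00534 and 0.0154 to 0.0956 and 0.0747. These NUTs are neighbours and may not be independent.

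NUT0902 (321 nt, chromosome IV, minus strand), between EHD3 and KRS1, had 3 and 2 reads in WT against 34 and 46 in upf1, both with DMSO, and rose by 3.06 ± 0.30. NUT0951 (1164 nt, chromosome V, minus strand), between YEL075C and YEL073C near a chromosome end, went from 0.00820 and 0.00829 to 0.0953 and 0.0919. Subtelomeric genes belong to families of near copies, and how reads with several matches were counted is not given, so this value is uncertain. NUT0130 (1796 nt, chromosome IV, plus strand) shared 91.8% of its reads with SUT059 and 92.3% with XUT0187, and went from 0.00266 and 0.00307 to 0.0408 and 0.0405. It rose by 2.81 ± 0.21 (log2 ± SE, adjusted p = 1.83e-05 in limma). NUT0594 (676 nt, chromosome XIII, plus strand), which shared 94.6% of its reads with SUT308, went from 0.0141 and 0.00816 to 0.0911 and 0.101. The upf1 DMSO values of all these NUTs lay above those of WT DMSO, which the rule for naming them required. NUT0238, the 1 NUT that fell, had 2 and 5 reads in WT DMSO against 0 and 1 for upf1 DMSO. It no longer passed without WT DMSO replicate 2 or without upf1 DMSO replicate 1.

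**Figure D5:**
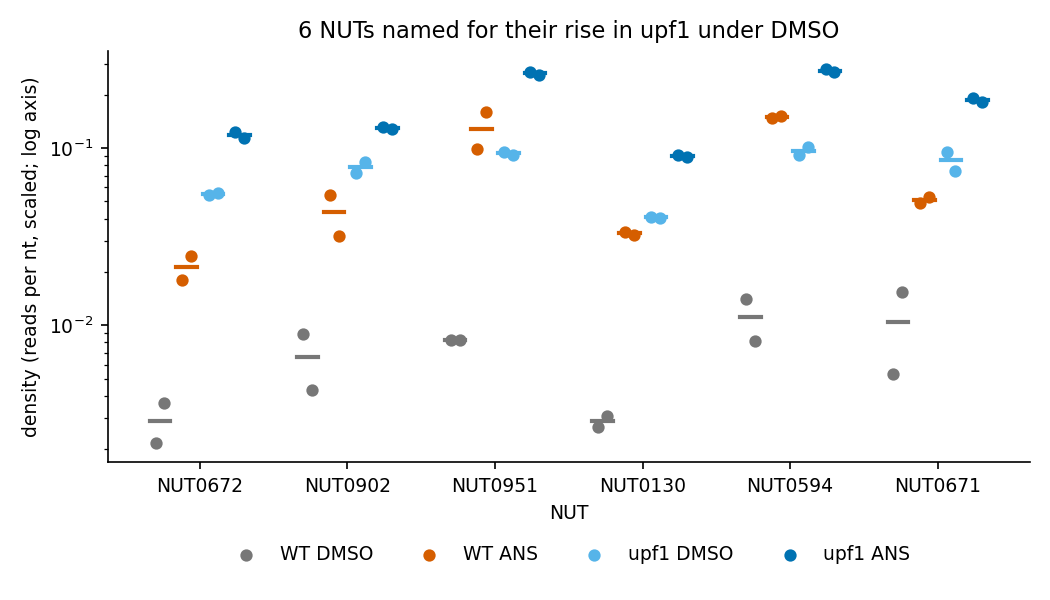
Density on a log axis (y axis) of 6 NUTs named for their rise in upf1 DMSO (x axis), with 1 point per library, coloured by group, and a bar at the mean of 2 libraries. In each NUT both upf1 DMSO points lie above both WT DMSO points, which the rule for naming them required. Both upf1 ANS points lie above all others.

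Under ANS the upf1 and WT libraries were closer. In upf1 ANS against WT ANS 32 NUTs rose and 1 fell of 1448 tested, beside 2.69% and 0.216% of all features, and the medians were 0.30 for NUTs and 0.12 for all features. Rescaled, 56 NUTs rose and 3 fell, beside 5.41% and 1.93%. The number past the test was 0 without upf1 ANS replicate 1, where 132 were higher and 6 lower at an unadjusted p below 0.05, and 1 without upf1 ANS replicate 2. It was 9 without WT ANS replicate 1, 11 without either upf1 DMSO replicate 1 or upf1 DMSO replicate 2, and 115 without WT ANS replicate 2.

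NUT0672 rose here too, by 2.32 ± 0.24 (log2 ± SE, adjusted p = 0.00352 in limma), with the ANS densities given above. NUT1193 (1471 nt, chromosome X, minus strand) starts between IME1, the master activator of meiosis, and RPL43B. All of its reads were shared with SUT643, and 99.8% with XUT1396. Under ANS it had 0.0358 and 0.0432 in WT against 0.139 and 0.121 in upf1, and rose by 1.64 ± 0.21 (adjusted p = 0.0102 in limma). With DMSO it stood at 0.00454 and 0.00469 in WT against 0.0507 and 0.0490 in upf1. NUT0918 (1551 nt, chromosome IV, minus strand), which shared 92.3% of its reads with XUT1080, had 0.0164 and 0.0221 in WT against 0.0649 and 0.0477 in upf1, all with ANS. NUT0671 and NUT0902 rose as well, by 1.81 and 1.55. NUT0453, antisense to YKL102C, was the 1 that fell, from 0.140 and 0.219 to 0.0645 and 0.0600, by 1.44 on the log2 scale (SE 0.26, adjusted p = 0.0238 in limma). Without upf1 ANS replicate 1 none of these calls remained, and without upf1 ANS replicate 2 NUT0672 alone among them did. NUT0671 and NUT0918 also failed without WT ANS replicate 1, NUT0902 without WT ANS replicate 2, and NUT0902 and NUT0918 without either upf1 DMSO library. The rise of NUT0902 also failed when rescaled on protein-coding genes, at 1.47 and an adjusted p of 0.0605 in limma.

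The interaction term, the ANS effect in upf1 minus that in WT, tested whether the ANS response depended on Upf1. It was negative for 79 tested NUTs and positive for 3, beside 8.36% and 0.19% of all features. The medians were -0.31 for NUTs and -0.23 for all features. Of the 79, 45 shared reads with an XUT, SUT or CUT, 25 with no other feature and 9 with a protein-coding gene. Relative to protein-coding genes 105 were negative and 4 positive, beside 10.4% and 0.717%. The number past the test was 0 without upf1 DMSO replicate 1, where 157 were negative and 7 positive at an unadjusted p below 0.05. It was also 0 without upf1 ANS replicate 2, where 160 were negative and 7 positive. It was 10 without upf1 ANS replicate 1, 14 without upf1 DMSO replicate 2, 33 without WT DMSO replicate 1, 35 without WT ANS replicate 2 and 145 without WT ANS replicate 1.

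NUT1437 (1568 nt, chromosome XV, minus strand), between WTM2 and WTM1, shared 87.5% of its reads with XUT1711 and had the most negative interaction among the named NUTs. Its densities in WT went from 0.00609 and 0.00879 with DMSO to 0.0549 and 0.0777 with ANS, and in upf1 from 0.0541 and 0.0578 to 0.0760 and 0.0593. Both WT DMSO values were low, and all others lay between 0.0541 and 0.0777. The interaction was -2.43 ± 0.36 (log2 ± SE, adjusted p = 0.00870 in limma). NUT0951 and NUT0594 had interactions of -2.002 and -1.96. In all 3 of these NUTs both upf1 ANS libraries lay above both upf1 DMSO libraries, on a scale where 88.7% of all features rose. For NUT1437 that change in upf1 was 0.25 and did not pass (adjusted p = 0.357 in limma). Relative to protein-coding genes NUT1437 fell by 1.16 under ANS in upf1, and NUT0951 and NUT0594 changed by 0.01 and 0.02. NUT1421 (218 nt) went from 0 and 2 reads to 8 and 10 in WT, and from 13 and 10 to 16 and 18 in upf1. It passed with all libraries and without WT DMSO replicate 2, and failed without any other library and when rescaled on protein-coding genes (adjusted p = 0.102 in limma). NUT1393 (193 nt, chromosome XV, minus strand), between IZH4 and PKH2, had a positive interaction, with 6 and 8 reads turning to 3 and 2 in WT and 8 and 10 turning to 11 and 12 in upf1. Its ANS densities were 0.0248 and 0.0178 for WT against 0.0754 and 0.0622 for upf1. It passed without WT DMSO replicate 2, WT ANS replicate 1 or WT ANS replicate 2, and failed without any other library.

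Genes of the machinery that ends and degrades NUTs were read in the same libraries. On the deposited scale all 10 genes of the Nrd1 termination list, all 18 of the TRAMP and nuclear exosome list and all 9 of the list for cytoplasmic 5′ decay and NMD rose under ANS in WT. Their medians were 2.04, 1.82 and 1.67, beside 1.77 for all features, of which 90.2% rose. Rescaled, 5 rose and 3 fell among the 10, 6 rose and 1 fell among the 18, and 4 rose and 2 fell among the 9, beside 35.7% and 19.4% of all features. The lists were chosen with earlier results of these data known.

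NRD1 itself (YNL251C) went from densities of 0.237 and 0.243 to 1.20 and 1.69 under ANS in WT, and from 0.246 and 0.246 to 1.497 and 1.57 in upf1. It rose under ANS in WT by 2.55 ± 0.17 (log2 ± SE, adjusted p = 1.1e-06 in limma), and by 0.86 relative to protein-coding genes. NAB3 (YPL190C), its binding partner, went from 0.192 and 0.225 to 0.373 and 0.536, a rise of 1.09 ± 0.20 that became -0.60 relative to protein-coding genes. SEN1 (YLR430W), the helicase, went from 0.209 and 0.224 to 0.482 and 0.711, with changes of 1.42 and -0.27 on the 2 scales. The direction of NAB3 and SEN1 thus depended on the scale, and that of NRD1 did not.

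RRP6 (YOR001W), the nuclear exonuclease of the exosome, went from 0.270 and 0.312 to 0.937 and 1.17, a change of 1.84 on the deposited scale and 0.15 relative to protein-coding genes, which did not pass. PAP2 (YOL115W), the TRAMP poly(A) polymerase also called Trf4, went from 0.176 and 0.180 to 0.625 and 0.767 and rose on both scales, by 1.94 and 0.25. XRN1 (YGL173C), the cytoplasmic exonuclease that removes XUTs, went from 1.01 and 1.03 to 1.37 and 1.79. Its change was 0.62 on the deposited scale and -1.08 relative to protein-coding genes. In upf1 DMSO against WT DMSO 31.6% of all features rose and 0.613% fell on the deposited scale. PCF11 and SYC1 were the 2 of 10 genes of the Nrd1 list that rose there, by 0.66 and 0.85. They encode subunits of the cleavage and polyadenylation machinery. On the deposited scale 0 of 18 TRAMP and exosome genes passed in that comparison in either direction, and NAM7, which fell by 4.998 on the log2 scale, was the 1 gene of its list of 9 to change. After rescaling the same 2 genes of the Nrd1 list rose, and SEN1 and SSU72 fell, beside 30.9% and 16.4% of all features. On that scale 11 of the 18 fell, with a median of -0.33, and 6 of the 9 fell, among them XRN1 at -0.39, beside 16.4% of all features.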

How the data were processed

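The authors deposited, for 11966 features in 8 libraries, a normalized density (signal). The submitters' processing notes name Trim Galore, HISAT2 2.2.0, featureCounts 2.0.0, DESeq2 and build R64, with no role for each. What the scaling rests on is not given in the sources used here. Names of 6105 features matched the R64 gene table. Lengths and whole reads were recovered from the densities and used for depth and shared reads, not for tests.

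Densities plus 0.00340 (a pseudocount at the 5th percentile of nonzero values) were put on the log2 scale and fitted in limma 3.58.1 (R 4.3.3). Of all features 11579 passed the filter and 387 did not. The model had 1 mean per group over all 8 libraries and a trend of variance on level. It left 4 residual degrees of freedom, or 9.69 at the median once moderated, and tests were two-sided. P-values were adjusted by Benjamini and Hochberg within each of 5 comparisons, at 0.05. The pseudocount understates changes of low features. The method was tested on simulated data in which few features changed, in both directions and none at the lowest densities. That test does not cover a rise of most features or changes of NUTs near the pseudocount. For the rescaled results, libraries were set to the median ratio of protein-coding genes before the same fit. Tables were prepared with Python 3.11.15 and pandas 2.3.3.

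The NUTs named are the 6 of highest mean density and, for each of 4 comparisons, up to 6 rises and 4 falls past the threshold. They also include up to 4 rises and 4 falls relative to protein-coding genes for ANS in WT, and up to 4 interactions in each direction. Mean density had to exceed the median tested NUT, 0.0184, and, except for the interaction, groups could not overlap. Members, lists and rules were chosen with earlier results of these data known. Alternatives were other pseudocounts, filters and scaling, no variance trend, a replicate block, only the 2 groups compared, and leaving out each library. The recovered reads cover counting error only.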

Additional observations from a re-analysis of the deposited data

Results flagged for a closer look

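The ANS effect differed between WT and upf1, by the interaction term of limma, for 82 of 1448 tested NUTs. The term was negative for 5.46% and positive for 0.207% of tested NUTs, beside 8.36% and 0.19% of all features. These shares are no result about NUTs, and the count depended on single libraries, as given above. Among the named NUTs the term passed for NUT1437 (-2.43, log2), NUT1421 (-2.28), NUT0951 (-2.002), NUT0594 (-1.96), NUT0493 (-1.78), NUT0130 (-1.46) and NUT1393 (1.55). A negative value is a smaller rise under ANS in upf1 than in WT, and the reads behind NUT1421 and NUT1393 were few. Rescaled on protein-coding genes, the term no longer passed for NUT1421 (adjusted p = 0.102 in limma) or NUT0493 (0.0755), and passed for the other 5. Groups of 2 libraries were not searched for outliers.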

How the results depend on the processing

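Counts of NUTs past the test kept within 1.5 times of their value except as follows. Rescaled on protein-coding genes, 695 of 1448 changed under ANS in WT, 289 under ANS in upf1 and 59 in upf1 against WT under ANS. With a replicate block and that rescaling the numbers were 666, 272 and 50. For upf1 against WT under ANS the count was 33, and became 15 with a pseudocount 5 times smaller, 119 with one 5 times larger, 55 with no variance trend and 57 from only the 2 groups compared. The interaction count of 82 became 14 with the pseudocount 5 times larger. Restricted, after the data were seen, to NUTs sharing reads with no other feature, which leaves 932 tested, the counts were 890, 882, 278, 15 and 26 in the order of the report. Leaving out 1 library gave 302 to 581 NUTs for upf1 against WT in DMSO, 0 to 115 under ANS and 0 to 145 for the interaction, and each remained within 1.5 times for ANS in WT (1248 to 1351) and in upf1 (1184 to 1361).

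The log2 difference of the median NUT level was 0.69 for ANS in WT, 0.29 for ANS in upf1, 0.74 for upf1 in DMSO and 0.34 for upf1 under ANS. With sums in place of medians it was -0.55, -0.52, 0.16 and 0.19. On the deposited scale with no denominator it was 2.57, 1.87 and 1.05 for the first 3. With sums that leave out the small RNA NUTs, chosen after the data were seen, it was 0.42 for ANS in upf1 and 0.61 for upf1 in DMSO. Leaving out 1 library gave 0.57 to 0.82 for ANS in WT, 0.21 to 0.37 for ANS in upf1, 0.61 to 0.87 for upf1 in DMSO and 0.25 to 0.42 for upf1 under ANS. Under ANS in WT, NUT1169, NUT1162 and NUT0255 had changes of -1.52, -1.69 and -1.66 once rescaled, with or without the replicate block, since the rescaling follows protein-coding genes. Of 726 values of 43 named results under these settings, 645 stayed on their side of the threshold, 57 no longer passed and 18 newly passed. The other 6 reversed direction, with the threshold passed before or after the change of setting. Values that failed both before and after are among the 645 whatever their direction. The cause of the other shifts was not tested.

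Replicate numbers are shared by the groups, and whether same-numbered libraries were grown or processed together is not given. Deviations of same-numbered libraries correlated at -0.0454 to 0.167, which does not settle whether they are paired. With the replicate block 1336, 1322, 491, 32 and 69 NUTs passed in the 5 comparisons, and no call of a named NUT changed. Only 2 libraries per group and few reads per NUT limit precision: 514 NUTs had under 10 reads over the WT DMSO pair.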
